A study of Mus musculus with 46 samples.

Results

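The liver holds several cell types besides hepatocytes, and 35 genes that mark them were followed here through livers with and without the long noncoding RNA Falcor. The 35 genes were listed by name from their known cell types and not by any measured value, though earlier results of these data were known. All 35 were found among the 55774 rows of the liver tables. They comprised 8 macrophage genes, 6 general myeloid genes, 4 genes of MHC class II, 2 neutrophil genes, 8 endothelial genes and 7 stellate cell genes. The question they address is whether the cellular makeup of the livers differed between the genotypes.

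Total RNA depleted of ribosomal RNA was sequenced from 46 samples of mouse, of which 19 were livers and 27 were cultures of AML12, an established mouse hepatocyte line. The livers fell into 4 groups: 4 controls (Ctrl) and 4 Falcor knockouts (KO) labelled NCD, and 5 controls and 6 knockouts labelled HFD. NCD and HFD commonly stand for a normal chow and a high-fat diet, but the labels give the abbreviations alone. The AML12 cultures carried a doxycycline-inducible hairpin (shLinc, or the control shCtrl, without doxycycline, with it, or in a state labelled Restored; 3 libraries for each of 6 groups). Others carried a conventional hairpin against Falcor, a hairpin against ZC3H11A or a control hairpin (3 libraries each). The strain, age and sex of the animals, the design of the knockout, the cells that lost Falcor and the time of feeding are not stated in the labels. The labels do not say that libraries of a group came from separate animals or cultures, so p-values below measure only the spread between libraries.

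Kupffer cells are the resident macrophages of the liver and line its sinusoids, where they take up particles and ageing blood cells. Liver sinusoidal endothelial cells form the fenestrated wall of these vessels and clear waste molecules through scavenger receptors. Hepatic stellate cells lie between the endothelium and the hepatocytes, store vitamin A as retinyl esters and are the main source of scar matrix in liver injury. MHC class II molecules present peptides to helper T cells and are made by macrophages, dendritic cells and B cells. In bulk RNA, fewer cells of a type and less RNA per cell cannot be told apart.

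The genes of MHC class II are known for shared promoter elements, among them the Y box, so the promoters of the 2 class II members that could be searched are shown. Of the 35 members, 24 were in the RefSeq promoter table (GRCm38.p6), with 25 promoters, and the 250 bases before each start were searched on both strands. The class II members Cd74 and H2-Ab1 were not among the 24 and were not searched. The Y box letters CTGATTGG stood in 2 of the 25 promoters, those below, against 3.83% of all 32851 promoters of this length. A core for the myeloid factor PU.1, GAGGAAGT, stood in the promoters of S100a8 and Eng, 2 of 25, against 2.44% of all promoters. A strict pattern for the X box, a second class II element, matched 0 of 25 and 0.0183% of all, which says only that this pattern is not in these windows. No match overlapped another in a member. The motifs were chosen after the members' values had been seen. Capitals mark the Y box, whose first base lies 51 bases before the start of H2-Aa (chr17:34287824-34288073, minus strand) and 62 before that of H2-Eb1 (chr17:34305617-34305866, plus strand).
H2-Aa: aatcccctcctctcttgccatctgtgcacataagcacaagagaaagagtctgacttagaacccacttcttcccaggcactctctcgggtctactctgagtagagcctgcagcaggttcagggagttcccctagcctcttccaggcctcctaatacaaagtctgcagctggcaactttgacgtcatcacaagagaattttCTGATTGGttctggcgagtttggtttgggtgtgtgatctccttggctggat
H2-Eb1: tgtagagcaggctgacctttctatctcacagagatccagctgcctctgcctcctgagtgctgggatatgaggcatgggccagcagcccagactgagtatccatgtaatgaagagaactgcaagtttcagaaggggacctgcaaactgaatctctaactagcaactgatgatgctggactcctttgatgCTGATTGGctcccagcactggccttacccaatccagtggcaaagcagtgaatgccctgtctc

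Levels in the liver are given as the deposited whole-number values after rescaling between libraries (below, scaled values), within 1 table at a time. The unit of the deposited liver values is not stated. Sums over a list, and any comparison of levels between genes, hold only in that unknown unit. Falcor itself (9030622O22Rik) was listed at 0 in all 10 knockout livers, at 70 to 135 in the 4 NCD controls and at 17 to 27 in the 5 HFD controls. Column totals were 833910 to 872375 in the NCD table and 918867 to 975752 in the HFD table. In the HFD table, 3 rows with identical values held 22.4% to 78.2% of a column, against 3.43% to 12.9% in the NCD table. The highest share was in the HFD knockout KO-6, where a deposited value of 1 corresponds to 2.37 after rescaling, so low values there are coarse. Hepatocyte genes were abundant in every liver. Their summed scaled values were 53266 to 68182 in NCD controls and 66284 to 80438 in NCD knockouts. In HFD livers they were 29555 to 35709 in controls and 28444 to 36261 in knockouts. Mesothelial genes were at 0 in all HFD livers and summed to at most 1.74 in an NCD liver. Of the 35 members, 10 overlap an annotated gene on the opposite strand in GENCODE M21 (Cdh5, Clec4g, Csf1r, Des, Eng, H2-Eb1, Lrat, Reln, Stab1 and Stab2). The libraries were made to keep strand, but the labels do not say whether strand was used in quantification.

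No member passed the test between knockout and control livers in either table. In NCD livers 27 of the 35 members had a mean scaled value of at least 3 and were tested, and 0 of 27 were called at an adjusted p under 0.05 (limma, Benjamini-Hochberg over 9448 genes), where 570 of all genes, 6.03%, were called. That count of all genes was 1704 without the control Ctrl-5 and 6 to 32 without any other 1 library, while the members' count stayed at 0 each time. In HFD livers 19 members were tested and 0 were called (limma, over 6057 genes), where 3 of all genes, 0.0495%, were called (1 to 8 on leaving out 1 library). At an unadjusted p under 0.05 there were 4 members in each table: Kdr, Lrat, Reln and H2-Eb1 in NCD, and Dcn, Reln, Eng and Ecm1 in HFD. Of all genes 2823, 29.9%, were under that p in NCD and 754, 12.4%, in HFD, against 14.8% and 21.1% of the members tested. The median log2 fold change (knockout minus control, on the log2(scaled value + 1) scale) of the members tested was -0.05 in NCD livers, where it was 0.03 for all genes. It was -0.15 in HFD livers, where it was 0.02 for all genes. In NCD livers 12 estimates were above 0 and 15 below, and in HFD livers 2 were above and 17 below. In NCD livers the direction of these counts depended on the scaling: with no rescaling the median of all genes moved to 0.21 and 20 of the 27 members were above 0. The 95% confidence interval lay between -1 and 1 on the log2(scaled value + 1) scale for 21 of 27 members in NCD livers and for 19 of 19 in HFD livers. That scale understates the fold of low genes, so these intervals set no bound on the fold of the scaled values themselves.

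**Figure D1:**
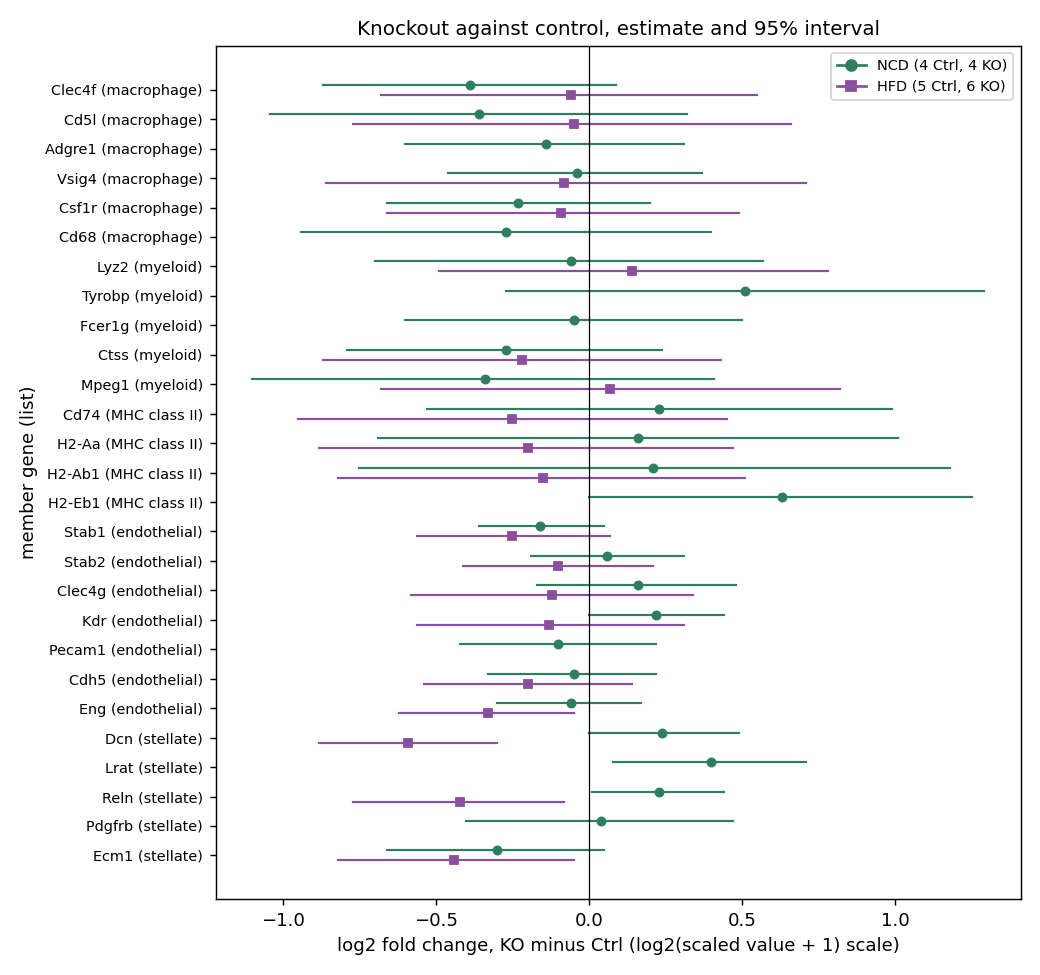
Log2 fold change of each member tested (knockout minus control, points) with its 95% confidence interval (lines), in NCD livers (circles, 4 against 4 libraries, 27 members) and HFD livers (squares, 6 against 5, 19 members). None of the members was called in either table; Dcn and Reln lie above 0 in NCD livers and below 0 in HFD livers.

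The macrophage genes had NCD estimates below 0 that did not pass the test, and their size rested on 1 control library. Clec4f, a lectin that marks Kupffer cells, was at 68.5, 40.2, 35.3 and 42.1 in the 4 controls and at 35, 39.4, 37.5 and 26.2 in the 4 knockouts. The groups overlapped, and the first control, Ctrl-2, stood above all other livers. The fold change was -0.39 ± 0.21 (SE; adjusted p = 0.249, limma). Cd5l, a secreted scavenger protein of tissue macrophages, was at 58.2, 28.9, 28.9 and 31.5 in controls and at 30.0, 34.5, 32.3 and 16.3 in knockouts. Ctrl-2 was again the highest liver and the knockout KO-5 the lowest. Csf1r, the receptor for the macrophage growth factor CSF1, was 13.6 ± 2.16 (SD, n = 4) in knockouts and 16.5 ± 5.01 (SD, n = 4) in controls. Vsig4, a complement receptor of Kupffer cells, was 11.7 ± 0.944 (SD, n = 4) against 12.4 ± 3.65 (SD, n = 4). Adgre1, which encodes F4/80, was 5.38 ± 0.749 against 6.23 ± 2.13, and Cd68, a lysosomal glycoprotein, 5.35 ± 1.35 against 7.08 ± 3.75 (SD, n = 4 each). All 6 macrophage genes tested had estimates below 0, with a median of -0.25, from -0.39 to -0.04; with no rescaling 2 were above 0 and 4 below. Without Ctrl-2, 3 were above 0 and 3 below, with a median of -0.02, and Clec4f was at -0.19 ± 0.15 (SE). The scavenger receptor Marco and the phosphatidylserine receptor Timd4 were too low to test.

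Of the general myeloid genes, Lyz2, the lysozyme of macrophages and neutrophils, was at 65.1 in Ctrl-2 and at 25.7 to 28.4 in the other 3 NCD controls. It was at 28.0 to 35 in the 4 knockouts, so that the direction of its estimate turned with that library: -0.06 ± 0.28 with Ctrl-2 and 0.25 ± 0.10 without it (SE; adjusted p = 0.901 and 0.173, limma). Mpeg1, a pore-forming protein of macrophages, was 24.4 ± 11.2 in knockouts and 29.8 ± 9.12 in controls (SD, n = 4 each), with the knockout KO-4 at 39.2 and KO-5 at 12.7. Tyrobp, a signalling adaptor of myeloid receptors, had the largest estimate of the 5 tested, 0.51 ± 0.34 (SE). Its 4 controls ranged from 2.10 to 7.99 and its 4 knockouts from 4.36 to 9. Ctss, a lysosomal protease, and Fcer1g, an Fc receptor subunit, had estimates of -0.27 ± 0.23 and -0.05 ± 0.24 (SE). Ptprc, which encodes the leukocyte antigen CD45, was below 4 in every liver and was not tested. The same held for the neutrophil calprotectin genes S100a8 and S100a9, the highest value of any untested NCD member being 3.49.

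The class II genes varied among livers more than between genotypes in the NCD table. Cd74, the invariant chain that guides class II molecules to the endosome, was at 102, 41.3, 40.6 and 37.8 in the controls. It was at 53.0, 64.0, 81.1 and 45.2 in the knockouts, each above 3 of the 4 controls and below Ctrl-2. Its estimate was 0.23 ± 0.33 (SE; adjusted p = 0.666, limma) and 0.56 ± 0.18 without Ctrl-2 (adjusted p = 0.128, limma). H2-Ab1, a class II beta chain, was at 55.9 in Ctrl-2, at 18.6 to 21.4 in the other controls and at 17.2 to 48.8 in the knockouts. H2-Aa, the partner alpha chain, was at 32.0 in Ctrl-2, at 10.3 to 13.7 in the other controls and at 10.8 to 25.3 in the knockouts. In the knockouts the order of the livers was the same for Cd74, H2-Aa and H2-Ab1, with KO-4 highest, then KO-2 and KO-1, and KO-5 lowest. H2-Eb1, whose promoter is printed above, was at 1.14 in Ctrl-2 and did not stand high there. It was 4.19 ± 1.41 in knockouts and 2.39 ± 0.986 in controls (SD, n = 4 each), with an estimate of 0.63 ± 0.27 (SE; adjusted p = 0.165, limma). All 4 class II estimates were above 0, with a median of 0.22, and 0.53 without Ctrl-2, and none was called in either case. Over all alternatives run, the lowest estimates were 0.05 for Cd74, -0.04 for H2-Aa, -0.05 for H2-Ab1 and 0.29 for H2-Eb1.

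**Figure D2:**
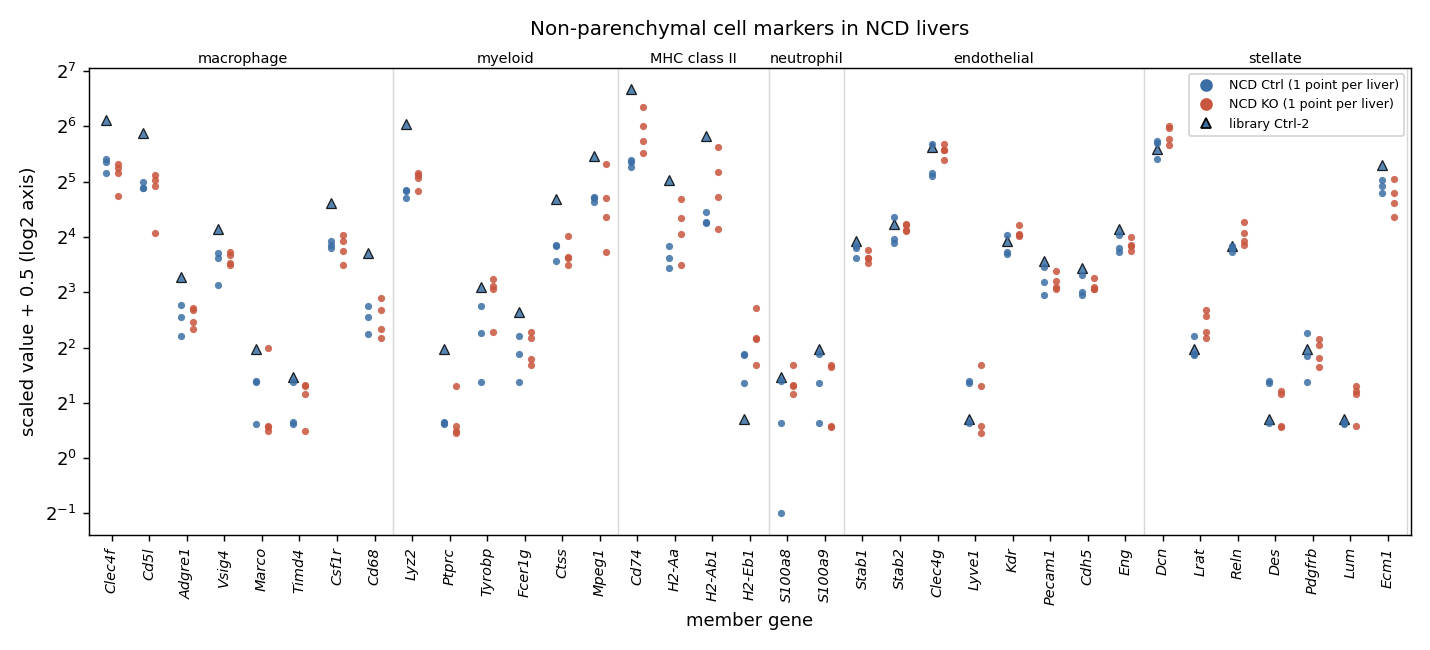
Scaled value (plus 0.5, log2 axis) of the 35 members in each NCD liver, with controls and knockouts side by side, 1 point per library; triangles mark the control Ctrl-2. The triangle is the highest control for every macrophage gene and for Cd74, H2-Aa and H2-Ab1, but not for H2-Eb1 or Dcn.

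The summed scaled values placed Ctrl-2 apart in the immune lists. It stood at 195 for the macrophage list, 151 for the myeloid list and 191 for the class II list. The other 3 controls were at 103 to 116, 71.5 to 76.4 and 72.2 to 77.0, and the 4 knockouts at 75.0 to 117, 63.3 to 97.6 and 75.9 to 161. For the endothelial list Ctrl-2 was at 137, with the other controls at 104 to 137 and the knockouts at 117 to 136. For the stellate list it was at 110, with the other controls at 90.4 to 108 and the knockouts at 97.0 to 128. The second set of 15 macrophage genes, not members, was at 317 in Ctrl-2, at 206 to 220 in the other controls and at 178 to 214 in the knockouts. Among them Slc40a1, the iron exporter ferroportin, was at 0.40 ± 0.12 (SE; adjusted p = 0.0783, limma) and Id3, a transcriptional inhibitor, at -0.58 ± 0.23 (SE; adjusted p = 0.132, limma). Of that set 11 genes were tested in NCD livers, 3 estimates were above 0 and 8 below, with a median of -0.24, and 0 were called. In HFD livers 7 were tested, 3 above 0 and 4 below, with a median of -0.03, and 0 were called. There both genes had the opposite sign, Slc40a1 at -0.35 ± 0.10 (SE; adjusted p = 0.215, limma) and Id3 at 0.96 ± 0.27 (SE; adjusted p = 0.190, limma).

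**Figure D3:**
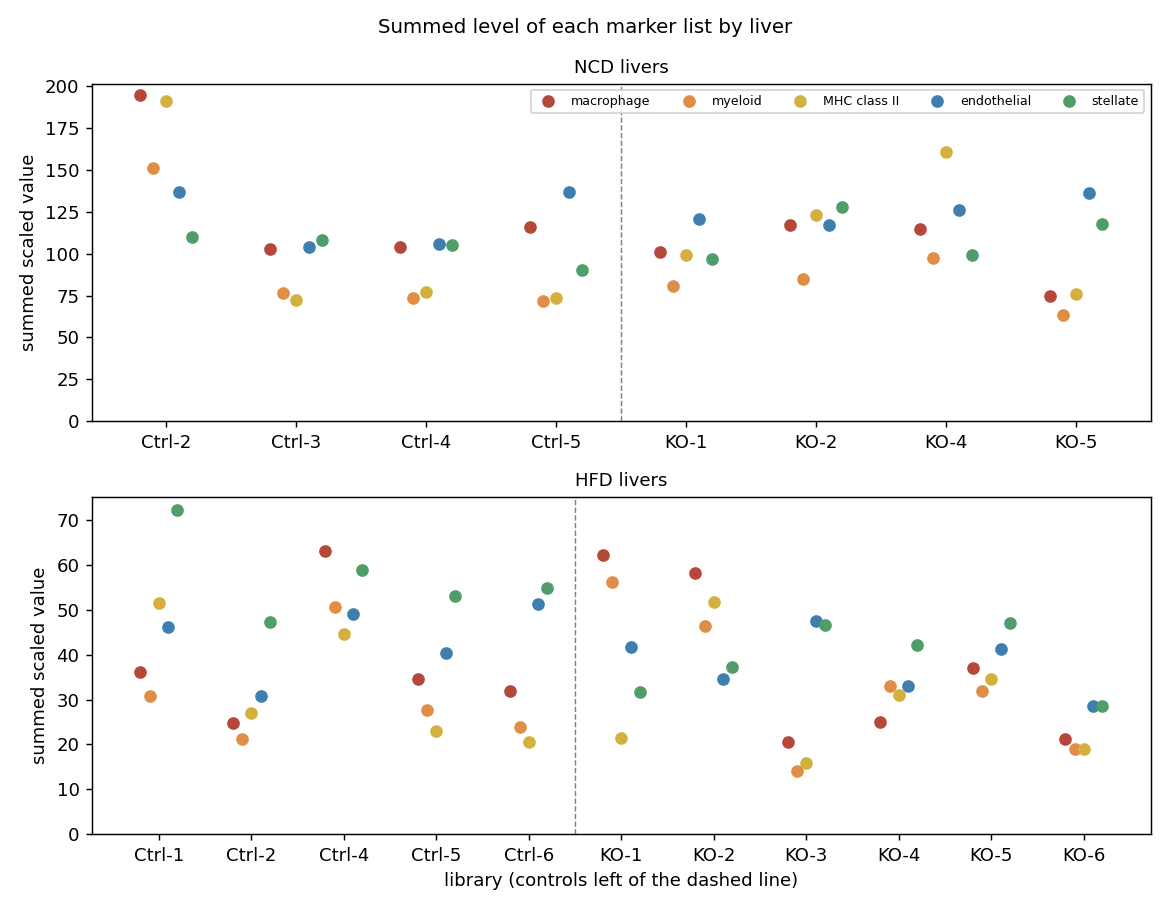
Summed scaled value of the members of each list (colours) in every liver, NCD above and HFD below, with controls left of the dashed line; each panel has its own scale. In NCD livers Ctrl-2 is highest for the macrophage, myeloid and class II lists; in HFD livers Ctrl-4, KO-1 and KO-2 are highest for macrophage genes and the controls tend to lie higher for stellate genes.

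Endothelial genes in the NCD livers had the smallest median standard error of the member lists, 0.11, and none stood apart by genotype. Stab2, a scavenger receptor that clears hyaluronan, was 17.5 ± 0.777 in knockouts and 16.9 ± 2.65 in controls (SD, n = 4 each; 0.06 ± 0.11 SE). Stab1, its relative, was 11.9 ± 0.860 against 13.4 ± 1.27 (SD, n = 4 each; -0.16 ± 0.09 SE). Clec4g, a lectin of sinusoidal endothelium, was 46.5 ± 3.83 against 42.2 ± 8.76 (SD, n = 4 each; 0.16 ± 0.14 SE). Kdr, the main receptor for VEGF-A, was at 16, 15.8, 15.7 and 18.1 in knockouts and at 14.8, 12.4, 12.8 and 15.8 in controls. One control lay within the range of the knockouts, and the estimate was 0.22 ± 0.10 (SE; adjusted p = 0.162, limma). The junction proteins Pecam1 and Cdh5 and the TGF-beta co-receptor Eng had estimates of -0.10, -0.05 and -0.06. The 7 endothelial genes tested had a median of -0.05, with 3 above 0 and 4 below; with no rescaling all 7 were above 0. Lyve1, a hyaluronan receptor, was below 3 in every NCD liver and was not tested.

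Of the stellate genes, 4 of the 5 tested had NCD estimates above 0, with a median of 0.23 (0.03 for all genes). Reln, a secreted glycoprotein that marks quiescent stellate cells in liver, was at 14.0, 18.7, 14.8 and 16.3 in knockouts and at 13.7, 13.4, 12.8 and 13.7 in controls. Every knockout lay above every control, the only such member of the 27, while the groups did not overlap for 19.4% of all genes tested (12.4% with the knockouts higher). The estimate was 0.23 ± 0.09 (SE; adjusted p = 0.148, limma). Lrat, the enzyme that esterifies retinol for storage, was 4.92 ± 0.893 in knockouts and 3.48 ± 0.448 in controls (SD, n = 4 each; 0.40 ± 0.14 SE, adjusted p = 0.0973, limma). Dcn, the matrix proteoglycan decorin, was at 50, 64.0, 54.0 and 62.4 in knockouts and at 48.0, 52.6, 51.3 and 42.1 in controls (0.24 ± 0.11 SE, adjusted p = 0.169, limma). One knockout lay within the range of the controls. Pdgfrb, the PDGF receptor of stellate cells and pericytes, had an estimate of 0.04 ± 0.19 (SE). Ecm1, a secreted matrix protein, was the exception in direction, at -0.30 ± 0.16 (SE). With no rescaling, 4 members were called higher in NCD knockouts (Dcn 0.43, Kdr 0.40, Lrat 0.55 and Reln 0.41), in a fit where the median of all genes was 0.21 and 1746 of 9536 genes, 18.3%, were called, against 4 of 27 members, 14.8%. Des and Lum were too low to test.

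In HFD livers, the macrophage genes differed among livers within each genotype and had nearly the same mean in both. Clec4f was at 9.94, 8.26, 17.1, 9.22 and 9.14 in the 5 controls, and from 6.32 through a median of 8.60 to 17.2 in the 6 knockouts. Its mean was 10.7 in each genotype, with an SD of 3.61 (n = 5) and 4.91 (n = 6), and the estimate was -0.06 ± 0.28 (SE; adjusted p = 0.949, limma). Cd5l was 10.9 ± 5.49 in knockouts (SD, n = 6) and 10.9 ± 4.81 in controls (SD, n = 5). The control Ctrl-4 and the knockouts KO-1 and KO-2 were the 3 highest livers for Clec4f, Cd5l, Vsig4 and Csf1r. Their summed macrophage values were 63.2, 62.2 and 58.1, and those of the other 8 livers were 20.5 to 37.0. The 4 macrophage genes tested had estimates between -0.09 and -0.05. Adgre1, Cd68, Marco and Timd4 were too low to test here.

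The myeloid and class II genes in HFD livers were likewise spread within genotypes. Lyz2 was 11.6 ± 4.71 in knockouts (SD, n = 6) and 10 ± 3.22 in controls (SD, n = 5). Mpeg1 was 11.1 ± 6.20 (SD, n = 6) and 9.83 ± 3.36 (SD, n = 5), and Ctss 5.35 ± 2.70 and 5.91 ± 1.46. Cd74 was at 32.5, 16.5, 26.8, 13.8 and 13.7 in controls, and from 8.69 through a median of 16.7 to 30.0 in knockouts, with an estimate of -0.25 ± 0.32 (SE). KO-1, among the highest livers for macrophage genes, had 14.3 for Cd74 and the lowest knockout value for H2-Ab1, 3.06. The other livers high for macrophage genes, Ctrl-4 and KO-2, were also high for the class II list, with sums of 44.6 and 51.7. Ctrl-1 stood beside them at 51.5, so the class II and macrophage lists followed the same livers only in part. The 3 class II genes tested had estimates of -0.25, -0.20 and -0.15. The neutrophil genes were at 2.52 or less in every HFD liver. Tyrobp, too low on average to test, ranged from 0 to 7.44.

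All 6 endothelial genes tested had HFD estimates below 0, from -0.33 to -0.10, with a median of -0.16 (0.02 for all genes), and this held with the other 2 scalings. Eng was at 9.03, 5.90, 7.44, 6.92 and 6.86 in controls and from 4.01 through a median of 5.67 to 7.11 in knockouts. The groups overlapped, and the estimate was -0.33 ± 0.13 (SE; adjusted p = 0.321, limma). Stab1 was 3.84 ± 0.803 in knockouts (SD, n = 6) and 4.72 ± 0.817 in controls (SD, n = 5), with an estimate of -0.25 ± 0.14 (SE). Clec4g had an estimate of -0.12 ± 0.21, Stab2 of -0.10 ± 0.14, Kdr of -0.13 ± 0.20 and Cdh5 of -0.20 ± 0.16 (SE). Pecam1 and Lyve1 were too low to test. In the set of 18 other endothelial genes, 8 were tested and all 8 were below 0, with a median of -0.23 and 0 called. Among them Ehd3, a membrane-trafficking protein, was at -0.56 ± 0.18 (SE; adjusted p = 0.236, limma).

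The stellate genes had the lowest HFD median of the member lists, -0.44, and Dcn was the only member whose genotypes did not overlap there. Dcn was at 37.0, 23.6, 28.3, 25.4 and 24.0 in the controls and from 14.2 through a median of 17.8 to 21.3 in the knockouts. Every knockout lay below every control; groups did not overlap for 2.34% of all genes tested, and for 0.759% with the knockouts lower. The means were 17.9 ± 2.71 (SD, n = 6) and 27.6 ± 5.56 (SD, n = 5). The estimate was -0.59 ± 0.13 (SE; 95% interval -0.88 to -0.30), with an adjusted p of 0.143 (limma) that did not pass. It stayed between -0.77 and -0.37 over 19 alternatives, with adjusted p-values of 0.0571 to 1.00, so it was called under none. Reln was at 9.03, 5.90, 6.69, 6.92 and 6.86 in controls and from 3.06 through a median of 5.13 to 6.73 in knockouts, with an estimate of -0.42 ± 0.16 (SE; adjusted p = 0.295, limma). Its groups overlapped. Ecm1 was 13 ± 3.43 in knockouts (SD, n = 6) and 17.7 ± 3.09 in controls (SD, n = 5; -0.44 ± 0.18 SE, adjusted p = 0.334, limma). Lrat, Pdgfrb, Des and Lum were too low to test. The summed stellate list was 47.2 to 72.3 in controls and 28.5 to 47.1 in knockouts. Of the set of 13 other stellate genes, 4 were tested; all 4 were below 0, with a median of -0.33, and 0 were called. The genes of activated stellate cells summed to 4.57 to 9.03 in controls and 2.37 to 10 in knockouts. When the 4 livers in which the 3 identical rows held over 50% were left out, 2 controls and 5 knockouts remained, and Dcn was at -0.77 ± 0.16 (SE; adjusted p = 0.516, limma).

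**Figure D4:**
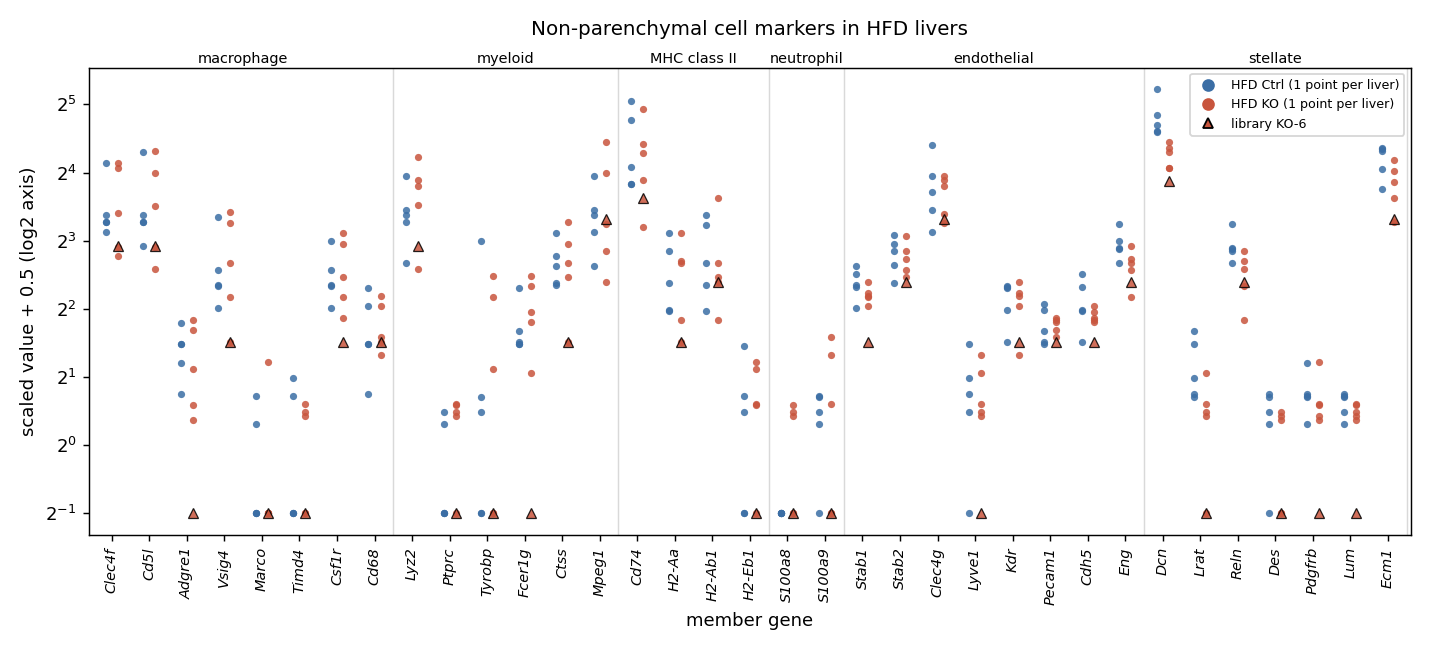
Scaled value (plus 0.5, log2 axis) of the 35 members in each HFD liver, with controls and knockouts side by side, 1 point per library; triangles mark the knockout KO-6. For Dcn the 6 knockouts, 14.2 to 21.3, lie below the 5 controls, 23.6 to 37.0.

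The knockout effect on Dcn and Reln was called different between the NCD and HFD livers, at a share of the members near that of all genes. The 2 tables were normalized separately, so the test was made on the difference of the within-table fold changes (limma estimates and errors, Benjamini-Hochberg over the 6007 genes tested in both). For Dcn the difference, HFD minus NCD, was -0.83 ± 0.17 (SE; 95% interval -1.19 to -0.48; adjusted p = 0.0158 from the limma fits). For Reln it was -0.65 ± 0.18 (SE; 95% interval -1.04 to -0.26; adjusted p = 0.0411 from the limma fits). These were 2 of 19 members tested, where 7.26% of all genes were called. At an unadjusted p under 0.05 (limma estimates and errors) there were the same 2 members and 1772 of the 6007 genes. The Dcn difference was called in 25 of 26 alternatives and lost its call with no rescaling (-1.09, adjusted p = 0.159). The Reln difference was called in 10 of 26, with adjusted p-values of 0.0217 to 0.219. The third stellate gene tested, Ecm1, was at -0.13 ± 0.24 (SE), with both fold changes below 0. Of the endothelial genes, Kdr had the largest difference, -0.35 ± 0.22 (SE; adjusted p = 0.312, limma). Clec4f was at 0.33 ± 0.35 and Cd74 at -0.48 ± 0.46 (SE), neither called. In the second macrophage set, Slc40a1 and Id3 were the 2 of 7 genes called, at -0.74 ± 0.16 (SE; adjusted p = 0.0207, limma) and 1.54 ± 0.35 (SE; adjusted p = 0.0216, limma). Their tests were added after their opposite signs had been seen. Some genes of the second macrophage set are not confined to macrophages. The set summed to scaled values of 114 to 192 in the inducible AML12 hepatocyte cultures, where the macrophage members summed to 0.927 to 4.64. In each inducible group 10 or 11 of its 15 genes were at 0 in all libraries, so the sum came from the remaining genes. The cell type behind the Slc40a1 and Id3 differences was not tested. The Slc40a1 difference was called in 19 of 26 alternatives (adjusted p up to 0.206) and the Id3 difference in 18 of 23 (up to 0.0828). Both lost the call with no rescaling, without the NCD control Ctrl-2, Ctrl-3 or Ctrl-4, and without the 4 HFD livers whose 3 identical rows held over 50%, and Slc40a1 also without the NCD knockout KO-1 or KO-5.

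Genes of other cell types varied within both genotypes. Erythroid genes summed to 1882 to 3056 in NCD controls and 1779 to 4909 in NCD knockouts, and to 395 to 735 and 246 to 1093 in HFD livers. Lymphocyte genes summed to 72.5 to 118 and 70.5 to 154 in NCD livers, and cholangiocyte genes to at most 5.35. Most of the lymphocyte sum was Igkc, an immunoglobulin light chain, at 93.4 ± 33.8 in knockouts and 81.0 ± 20.5 in controls (SD, n = 4 each). It was the only 1 of the 17 lymphocyte genes high enough to test there. Over all 13 further lists the only calls in livers were of hepatocyte genes in NCD livers, where 6.03% of all genes were called. These were 3 of 14 tested, all higher in knockouts. The largest was Cyp2e1, a xenobiotic-oxidizing enzyme, at 4239 ± 320 against 2646 ± 370 (SD, n = 4 each; 0.69 ± 0.12 SE, adjusted p = 0.0316, limma). Apoa2, an apolipoprotein of HDL, was at 0.68 ± 0.15 (SE; adjusted p = 0.0428, limma). The part of these differences in the members' values was not tested. Whether these 3 calls held on leaving out 1 library was not tested either. The count of all genes called in NCD livers was then 6 to 32, or 1704 without Ctrl-5.

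AML12 is a hepatocyte line, and most members were at or near 0 in its cultures. Of the 35 members, 26 in the inducible table were at 0 in all 18 libraries, and only Cd68 and Ecm1 were above 0 in all 18. Cd68 was listed at 1 or 2 throughout. In the conventional table, which holds read counts, 9 members were at 0 in all 9 libraries: Clec4f, Marco, Timd4, Tyrobp, Ctss, H2-Ab1, S100a9, Lyve1 and Lum. A count of 0 allows up to 3 counts, or 0.339 to 0.670 CPM (counts per 1e+06 counts) in these libraries, for counting error only. Cd68, Stab1, Eng, Des and Ecm1 were above 0 in all 9 and were tested; 24 of the others never exceeded 3 counts, and the rest never exceeded 7.

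Cd68 was much higher with the Falcor hairpin. It had 40, 22 and 18 counts in the 3 control libraries and 309, 240 and 430 with the hairpin against Falcor. That is 3.84 ± 0.845 and 49.2 ± 1.74 CPM (SD, n = 3 each), a log2 fold change of 3.65 ± 0.20 (SE; adjusted p = 9.28e-11, edgeR). With the hairpin against ZC3H11A it had 46, 38 and 23 counts, or 6.32 ± 2.11 CPM (SD, n = 3), and a fold change of 0.67 ± 0.25 (SE; adjusted p = 0.0314, edgeR). That second call was lost in 4 of 10 alternatives. Set against each other, the Falcor hairpin was higher than the ZC3H11A hairpin by 2.97 ± 0.19 (SE; adjusted p = 4.50e-10, edgeR; 56.9% of all genes called). In the livers Cd68 was not called in NCD (-0.27 ± 0.29 SE) and was 2.83 ± 0.826 in HFD knockouts (SD, n = 6) and 2.77 ± 1.28 in HFD controls (SD, n = 5), too low to test. No annotated gene overlaps Cd68 (chr11:69664213-69666153, GRCm38). The other macrophage members had at most 6 counts in any conventional library.

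Ecm1 moved in opposite directions with the 2 conventional hairpins. It was 56.7 ± 10.3 CPM in controls, 26.7 ± 2.33 with the Falcor hairpin and 127 ± 18.1 with the ZC3H11A hairpin (SD, n = 3 each). It fell with the first (-1.07 ± 0.14 SE, adjusted p = 9.40e-06, edgeR) and rose with the second (1.16 ± 0.13 SE, adjusted p = 1.52e-06, edgeR). Between the hairpins the difference was -2.24 ± 0.14 (SE; adjusted p = 1.19e-09, edgeR). Des, the muscle-type intermediate filament, rose with both, by 0.79 ± 0.17 and 0.54 ± 0.18 (SE; adjusted p = 8.48e-04 and 0.0161, edgeR). Eng rose with the Falcor hairpin, 0.99 ± 0.32 (SE; adjusted p = 0.0148, edgeR), and was at -0.02 ± 0.34 with the other. Stab1 was not called with either, at 0.03 ± 0.24 and 0.48 ± 0.23 (SE). So 4 of 5 members tested were called with the Falcor hairpin and 3 of 5 with the ZC3H11A hairpin, where 51.5% and 48.5% of all genes were called. Falcor itself was 0.842 ± 0.295 CPM with its hairpin, 0.770 ± 0.282 with the ZC3H11A hairpin and 3.44 ± 1.29 in controls (SD, n = 3 each).

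**Figure D5:**
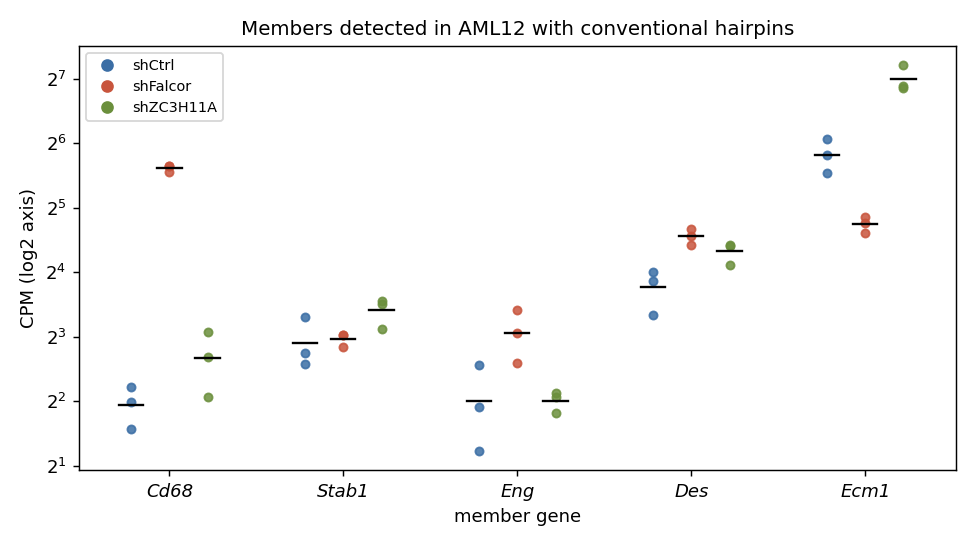
CPM (log2 axis) of the 5 members tested in AML12 cells with conventional hairpins, 1 point per library and a line at the mean of 3. Cd68 is at 47.2 to 50.3 with the Falcor hairpin and at or below 8.39 elsewhere; Ecm1 is lowest with the Falcor hairpin and highest with the ZC3H11A hairpin.

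In the inducible table Ecm1 was the only member high enough to test. It was listed at 8, 6 and 7 in control libraries without doxycycline and at 3, 3 and 4 in shLinc libraries, and it was called lower (-1.04 ± 0.15 SE, adjusted p = 1.35e-05, limma), where 65.3% of all genes were called. In that state Falcor was higher with shLinc, 9.41 ± 1.58 against 5.16 ± 0.822 scaled (SD, n = 3 each). With doxycycline, where Falcor was 2.46 ± 0.595 against 4.91 ± 0.606 (SD, n = 3 each), Ecm1 was at -0.14 ± 0.15 (SE; adjusted p = 0.469, limma; 52.5% of all genes called). In the Restored state it was at -0.12 ± 0.15 (SE; adjusted p = 0.501, limma; 57.9% of all genes called). The values of Ecm1 outside the control libraries without doxycycline were 2 to 4 as deposited, so a step of 1 is a large part of each.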

How the data were processed

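Per the submitters' processing notes, mm10 was the genome build, and kallisto and DESeq2 are listed without versions. As deposited by the authors, the NCD, HFD and inducible tables hold a score: whole numbers with nearly equal column totals, treated as a rounded normalized value of unknown depth, since no source says how they were made. The deposited conventional hairpin table holds read counts, 4474760 to 8837581 per library. Score tables were rescaled by TMM (edgeR 4.0.16), filtered at a mean scaled value of at least 3, put on log2(value + 1), which understates changes of low genes, and tested with limma 3.58.1 (trend, robust; R 4.3.3). For the counts the test was glmQLFTest of edgeR, with DESeq2 1.42.0 as an alternative. A call is a Benjamini-Hochberg adjusted p under 0.05 over all genes tested. Some liver control columns share their names with cell libraries and were given a group but no replicate number. All 35 members may be named, and at most 2 genes of each further list, those of smallest p. Members and lists were chosen with earlier results of these data known, and the comparison of the 2 conventional hairpins after their values were seen. Scripts were tested on simulated data. Alternatives were other scalings, pseudocounts and filters, no robust estimation, a replicate block and leaving out libraries.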

Additional observations from a re-analysis of the deposited data

Results flagged for a closer look

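In groups of 4 to 6 livers, 12 of the 92 member and group combinations tested had 1 library standing far from the rest by Dixon's criterion, where chance gives about 1 in 20; genes of 1 cell type are not independent. In the NCD control Ctrl-2, 7 genes stood high: Cd5l at 58.2 (others 28.9 to 31.5), Csf1r at 24.0 (13.4 to 14.7), Lyz2 at 65.1 (25.7 to 28.4), Mpeg1 at 43.4 (24.2 to 25.8), Cd74 at 102 (37.8 to 41.3), H2-Aa at 32.0 (10.3 to 13.7) and H2-Ab1 at 55.9 (18.6 to 21.4). In the NCD knockout KO-5, Kdr stood at 18.1 (others 15.7 to 16) and Cdh5 at 9.04 (7.85 to 8). In the HFD control Ctrl-4, Clec4f stood at 17.1 (8.26 to 9.94) and Cd5l at 19.3 (7.08 to 9.94). In the HFD knockout KO-2, H2-Ab1 stood at 11.8 (3.06 to 5.89).

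By the test of the difference on the log2 scale, the knockout effect was called different between the tables for 2 of 19 members. These were Dcn (HFD minus NCD, -0.83) and Reln (-0.65), where 7.26% of all genes were called. Both lost the call with no rescaling, and Reln kept it in 10 of 26 alternatives. Outside the members, Slc40a1 (-0.74) and Id3 (1.54) of the second macrophage set were called, and both lost the call with no rescaling. Part of that set was also present in AML12 hepatocyte cultures, with sums of 114 to 192 (scaled, inducible) and 189 to 243 CPM (conventional). Of its 15 genes, 10 or 11 were at 0 in all libraries of each inducible group, and 8 in each conventional group. The sums do not say whether Slc40a1 and Id3 were among the genes present there. These calls were not assigned to a cell type, which was not tested.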

How the results depend on the processing

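The count of members called stayed at 0 in HFD livers under every alternative run, and in NCD livers under every one but no rescaling, which called 4. No call reversed. Estimates of members uncalled in both fits changed sign in 30 of 400 cases in NCD livers, 25 of 361 in HFD livers and 21 of 442 for the difference between the tables. Correlations of same-numbered libraries were low (0.03 to 0.12 in NCD, -0.10 to 0.20 in HFD, -0.14 to 0.14 in the inducible and -0.06 to 0.13 in the conventional table). The livers gave only 2 such pairs in NCD and 3 in HFD, too few to decide on pairing. Their medians were 0.08 in each, against -0.02 and 0.01 for other pairs. In HFD livers the numbered control columns carry other numbers than their replicates, and the knockout columns carry the same ones. In NCD livers the numbers of Ctrl-4, Ctrl-5, KO-4 and KO-5 also differ from their replicates. Pairing by column name was not tested. With the replicate block, on numbered pairs alone in the livers, 9 genes were called in NCD livers, and no count of members moved by over 1.5 times. The count of all genes called in NCD livers was 1746 with no rescaling and 311 with a mean of at least 1. Leaving out 1 library gave 6 to 1704 (1704 without Ctrl-5, at most 32 without any other). In HFD livers it was 29 with no rescaling, 16 with median-of-ratios scaling, 12 with no filter, 0 without the 4 libraries over 50% and 1 to 8 leaving out 1. Of members whose effect differed between the tables, 0 were called with no rescaling, 1 each with a mean of at least 1, with no filter and without the libraries over 50%, and 1 to 2 leaving out 1. With the ZC3H11A hairpin 1 to 4 members were called leaving out 1 library: Cd68 lost its call without control 2 or 3 or hairpin library 1 or 2 (adjusted p up to 0.151), and Des without control 2 or hairpin library 2 or 3 (up to 0.0811). Stab1 was called at 0.73 without control 1. With the Falcor hairpin 3 to 4 were called, Eng losing its call without control 2 or hairpin library 2 (up to 0.0774). In the inducible table, no filter gave 2 members without doxycycline, 1 with it and 2 in the Restored state, and a mean of at least 1 gave 1 with doxycycline. The cause was not tested for any of these. Rounding to whole numbers and the coarse HFD scale limit what can be seen for members below a scaled value of about 3.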
